A study of Mus musculus with 12 samples.

Results

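The comparison was the effect of lowering Stag2 in mouse urothelial cells held in quiescence, and it used 6 of the 12 RNA sequencing libraries of the study. All were made from NU1, a line of normal mouse urothelial cells that became immortal on its own during repeated passage, so every library came from a single line. The 3 control libraries (genotype WT in the labels) carried the hairpin shNT and the 3 knockdown libraries (Stag2-KD) the hairpin sh4, both delivered by lentivirus. All 6 cultures, controls included, had been grown to confluence and then kept with 1 µM rosiglitazone, an activator of the nuclear receptor PPAR gamma, and 0.5 µM erlotinib, an inhibitor of the EGF receptor kinase, and were labelled differentiation day 7. Libraries were paired by experiment number (5, 7 or 9), which the labels also give as batch. The remaining 6 libraries, from proliferating cultures with the same hairpins and without these drugs, entered only to set the quiescent values beside those of growing cells. Because a single hairpin was used, the effect of losing Stag2 and any other effect of that hairpin cannot be told apart in these libraries.

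STAG2 is part of cohesin, a ring-shaped complex that holds sister chromatids together and shapes chromatin loops, and its gene is recurrently mutated in bladder cancer. In resting cells, genes of DNA replication and mitosis are held down by the DREAM complex, which joins a pocket protein, a repressor E2F and the MuvB core at E2F and CHR promoter elements. The series title links STAG2 with DREAM in keeping the urothelium quiescent, and the question here is which genes differ once Stag2 is lowered in the resting state.

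Sequences of 2 kinds bear on the results. The first are the 3′ UTR sites shared by many of the lower genes. Small RNAs, hairpins included, can lower transcripts that pair with their seed, and the sequence of sh4 is not given in the sources used here. Hexamers were scored by the signed p-values of the genes holding them in the proliferating contrast, adjusted for 3′ UTR length, with rare hexamers left out. TGACGC had the most negative score. The genes holding it had a median proliferating log2 fold change of -0.08, against 0.001 for those without it. The hexamer was chosen on these same values, so this difference supports nothing. TGACGC was then read in the quiescent libraries, a step added after the data had been seen. The quiescent contrast shares the hairpins and the fit of all 12 libraries with the proliferating one, so it is no independent test. The 30-base windows around it in the 3′ UTRs of Mmd (chr11:90277405-90277434, plus strand), Mdfi (chr17:47815854-47815883, minus), Bak1 (chr17:27020687-27020716, minus), Pard6b (chr2:168100690-168100719, plus) and Wwtr1 (chr3:57458875-57458904, minus) follow, in GRCm38 coordinates and in the direction of transcription. The only match in Stag2 lay in its coding sequence (chrX:42250013-42250042, plus strand) and is shown last. Capitals mark the hexamer.
Mmd: aaacgattccatTGACGCacacccccactg
Mdfi: ccgcacaaagctTGACGCctcccctgaccc
Bak1: agaggcactgacTGACGCactggggggggt
Pard6b: gatcagagctgcTGACGCtgattttaattt
Wwtr1: gcagctgtgagcTGACGCgagtcttgggcc
Stag2: acctgatgaagaTGACGCatatcaggtatt

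The second are promoters of replication genes that rose, from 250 bases before to 50 after the transcription start, taken from RefSeq on GRCm38.p6. The promoters of Mcm5 (chr8:75109259-75109558, plus strand) and Chek1 (chr9:36726609-36726908, minus strand) are shown because both genes stayed past the threshold whichever library was left out, and that of Mcm6 (chr1:128359656-128359955, minus strand) because it held 3 matches. Capitals mark every match to TTTGGCGC, TTTCGCGC, TTTCCCGC or TTTGGCGG, spellings of the E2F element, on either strand, and overlapping matches run together.
Mcm5: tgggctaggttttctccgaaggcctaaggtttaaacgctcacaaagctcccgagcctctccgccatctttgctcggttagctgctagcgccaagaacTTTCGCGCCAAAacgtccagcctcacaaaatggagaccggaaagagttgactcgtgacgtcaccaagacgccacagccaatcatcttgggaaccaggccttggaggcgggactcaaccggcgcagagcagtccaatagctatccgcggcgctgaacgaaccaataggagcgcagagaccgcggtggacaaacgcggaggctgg
Chek1: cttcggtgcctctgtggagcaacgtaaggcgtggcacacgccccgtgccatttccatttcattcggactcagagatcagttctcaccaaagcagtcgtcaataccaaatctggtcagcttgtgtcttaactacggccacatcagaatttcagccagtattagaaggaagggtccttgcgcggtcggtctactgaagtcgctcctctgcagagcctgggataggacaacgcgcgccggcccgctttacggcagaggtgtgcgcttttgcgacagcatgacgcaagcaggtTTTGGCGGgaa
Mcm6: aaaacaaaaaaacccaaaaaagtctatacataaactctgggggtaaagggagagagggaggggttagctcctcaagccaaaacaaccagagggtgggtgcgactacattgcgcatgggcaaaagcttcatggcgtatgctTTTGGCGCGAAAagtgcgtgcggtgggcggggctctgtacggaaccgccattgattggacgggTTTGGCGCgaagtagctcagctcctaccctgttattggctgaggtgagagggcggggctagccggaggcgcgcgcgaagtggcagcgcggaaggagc

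Quiescent libraries held 14524429 to 21987539 counts, the deepest being the knockdown of experiment 5 and the shallowest the control of the same experiment, and 3 counts corresponded to 0.136 to 0.207 CPM. CPM is the count of a gene scaled to its library's total, with totals adjusted by TMM. Epithelial identity was present in all 6 libraries: Epcam lay between 391 and 513 CPM, and Krt7, Krt8, Krt18, Krt19 and Krt20 were all abundant. The basal factor Trp63 had no count in any of the 6, and Krt5, Upk1b, Upk2 and Upk3a reached at most 2.58, 2.23, 1.45 and 0.0453 CPM. Defining basal and uroplakin markers were thus at or near 0. Summed fibroblast markers were 0.428 to 1.61 CPM in controls and 0.997 to 1.76 CPM in knockdowns, and summed endothelial markers stayed at or under 0.239 CPM.

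Stag2 itself, which checks the labels, fell. It stood at 128, 126 and 107 CPM in the controls of experiments 5, 7 and 9 and at 9.43, 15.3 and 11.7 CPM in the knockdowns, the order of experiments kept for all values below. The groups were far apart, and the fitted log2 change was -3.32 (SE 0.18, edgeR adjusted p 2.6e-05). It stayed past the threshold in each of the 6 fits that left out 1 quiescent library and in each of the 3 that left out an experiment. In proliferating cells the level went from a mean of 133 to 27.6 CPM. Of the 13 other tested genes for cohesin, its loaders and its regulators, 0 passed the threshold. Stag1, the paralog of Stag2, went from a mean of 56.5 to 65.8 CPM (log2 fold change 0.22, edgeR adjusted p 0.244).

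Across the transcriptome, 440 of 12406 tested genes (3.55%) passed the edgeR threshold, an adjusted p below 0.05, with the experiment number as a block. Of these, 197 (1.59%) were higher and 243 (1.96%) lower in knockdown. The fit without the block gave 54 genes (0.435%), 19 higher and 35 lower, and all 54 were among the 440. The direction was the same in all 3 experiments for 439 of the 440, which the choice of genes favours, and for 5791 of all tested genes (46.7%). The control and knockdown libraries did not overlap in 385 of them, against 2368 of all tested genes (19.1%). An unadjusted p under 0.05 was reached by 2527 genes.

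The number of calls rested on single libraries. Without the control library of experiment 9 there were 53 calls, without the knockdown library of experiment 9 there were 88, and without the control libraries of experiments 5 and 7 there were 170 and 148. Without the knockdown library of experiment 5 there were 191, and without that of experiment 7, 581. Leaving out a whole experiment left 101, 26 and 13 calls for experiments 5, 7 and 9. Among the 55 named genes past the threshold, 13 stayed past it in all 6 fits that left out 1 quiescent library, among them Areg, Ccne2, Cftr, Chek1, Csgalnact2, Ctnna1, Ddah1, Ivl, Mcm5, Mmd, Srebf2 and Stag2. Leaving out the control of experiment 9 cost 39 of the 55 their call, the knockdown of experiment 9 cost 32, the controls of experiments 7 and 5 cost 27 and 20, and the knockdowns of experiments 5 and 7 cost 18 and 8. No named gene past the threshold reversed its direction under any alternative. Without the block 11 of the 55 were past the threshold: Aldh1a1, Areg, Ccne2, Csgalnact2, Ctnna1, Il24, Mcm5, Rarg, Rhpn1, Srebf2 and Stag2.

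Higher and lower genes differed in level and in size of change. The higher genes had a median of 6.65 CPM in quiescent controls and a median log2 fold change of 1.18, whereas the lower genes had a median of 69.96 CPM and -0.76. All tested genes had medians of 31.6 CPM and 0.02. Of the 932 genes under 1 CPM in controls, 42 were higher and 0 lower, and 16 of the 42 met the filter on low counts only through the quiescent knockdown libraries, where they are high. Among the 2445 genes at or above 100 CPM, 9 were higher and 80 lower. The control libraries that set these levels are also part of the contrast, and genes near 0 have little room to fall. Both favour this pattern, so the counts by level are a description only. More than 2-fold changes numbered 120 among the higher and 68 among the lower genes. Over all levels, 19 higher genes met the filter only through the quiescent knockdown libraries and 2 lower genes only through the quiescent controls. These genes had to differ, and the counts of calls and the medians given here include them. The medians over experiments 5, 7 and 9 were 1.08, 1.08 and 1.19 for the higher and -0.83, -0.60 and -0.84 for the lower genes, a description only, since the genes were chosen on these same experiments.

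**Figure D1:**
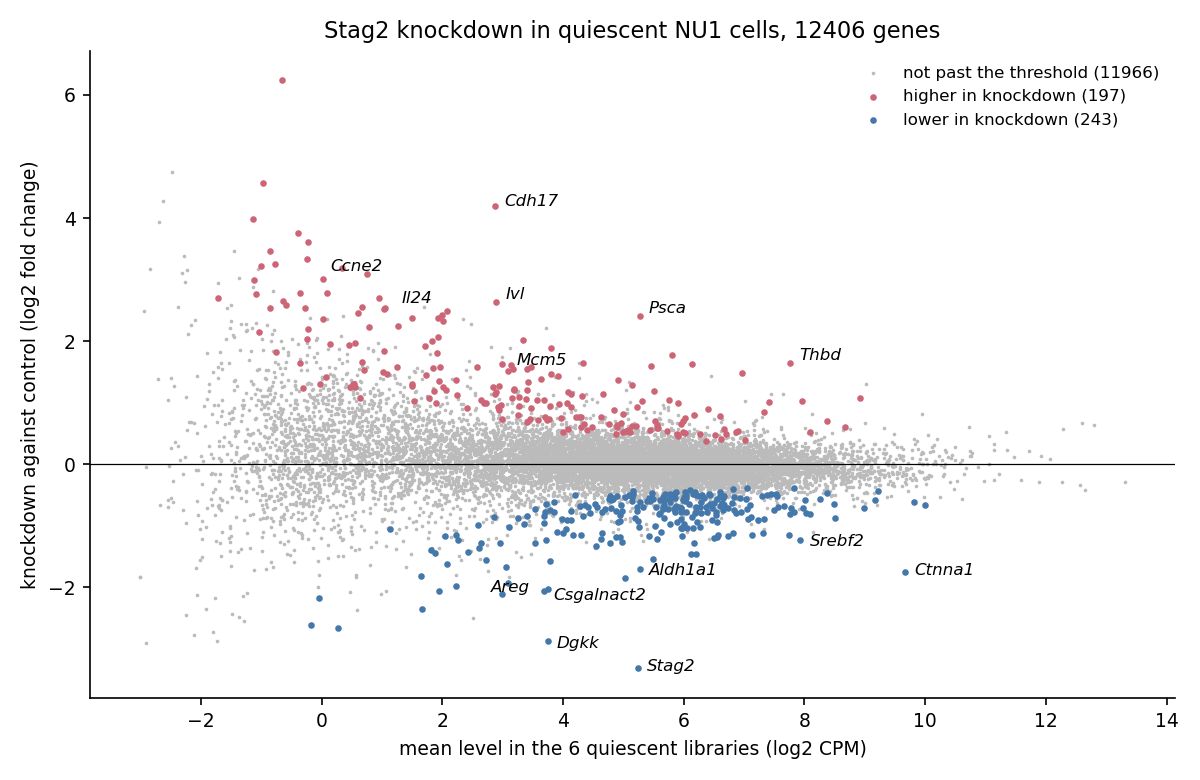
Each point is 1 of 12406 tested genes, with its mean level over the 6 quiescent libraries (x axis, log2 CPM) and its log2 fold change, knockdown against control (y axis). The 197 higher genes (red) spread over the low and middle levels and the 243 lower genes (blue) sit mostly at middle and high levels. The topmost point is Fxyd2, which met the filter only through the quiescent knockdown libraries, at 0, 0 and 0.119 CPM in controls and 1.68, 1.37 and 7.50 CPM in knockdowns.

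Several genes that drive or carry out DNA replication rose in the quiescent knockdown. Of 113 tested genes listed for E2F factors, cyclin E, origin licensing, the replication fork, repair and mitosis, 13 (E2f1, E2f2, E2f8, Ccne2, Mcm3, Mcm5, Mcm6, Pole, Rrm2, Chaf1a, Chek1, Clspn and Pbk) passed the threshold upward and 0 downward, against 1.59% and 1.96% of all genes. A log2 fold change above 0 was seen in 103 of the 113, against 6643 of 12406 genes, and 64 were higher in all 3 experiments, against 3150 of all tested genes. Their median log2 fold change was 0.54, against 0.02 for all genes. In bulk RNA a few cells that re-enter the cycle and a higher level in every cell cannot be told apart.

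Among the E2F genes, 3 of 5 rose, against 1.59% of all tested genes. E2f1, an activator of S-phase genes, was at 5.52, 3.12 and 5.43 CPM in controls and 9.16, 8.29 and 10.3 CPM in knockdowns, without overlap (log2 fold change 0.99, SE 0.18, edgeR adjusted p 0.0206). It lost its call without the controls of experiments 7 or 9 or the knockdown of experiment 9, where the highest edgeR adjusted p was 0.0786. E2f8, an atypical E2F that represses transcription, had 9, 32 and 29 counts in controls and 46, 123 and 65 in knockdowns (log2 fold change 1.57, edgeR adjusted p 0.0322). E2f2, an activator, had 1, 2 and 0 counts against 9, 12 and 4, too few for a fold change, and it lost its call in each of the 6 fits that left out a library. E2f8 lost its call in 5 of those 6, all but the one without the knockdown of experiment 5.

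Cyclin E2, the partner of CDK2 at entry into S phase, was almost undetected in controls. Ccne2 had 6, 4 and 4 counts in controls and 49, 47 and 39 in knockdowns, that is 0.414, 0.245 and 0.239 against 2.22, 2.80 and 2.29 CPM (log2 fold change 3.02, SE 0.33, edgeR adjusted p 0.00272, without the block 0.0053). The lowest knockdown library lay well above the highest control. Ccnd3, a D-type cyclin that activates CDK4 and CDK6, went from 84.9, 83.7 and 56.9 CPM to 164, 108 and 113 CPM (log2 fold change 0.79, edgeR adjusted p 0.0343). Cdkn2b, the inhibitor p15 of these kinases, moved the other way, from 33.0, 39.5 and 42.5 CPM to 21.4, 25.8 and 20.3 CPM (log2 fold change -0.77, edgeR adjusted p 0.029). Of 16 listed G1 cyclins, kinases and inhibitors, these 3 passed the threshold. Without the control library of experiment 9 the edgeR adjusted p was 0.14 for Ccnd3 and 0.125 for Cdkn2b.

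The MCM helicase, which unwinds DNA at origins, had 3 of its 6 genes rise. Mcm5 was at 3.24, 6.61 and 5.55 CPM in controls and at 12.7, 19.3 and 11.7 CPM in knockdowns, with every knockdown above every control (log2 fold change 1.51, SE 0.16, edgeR adjusted p 0.00259, without the block 0.0451). Its promoter, printed above, held 2 overlapping E2F matches. Mcm3 went from 10.2, 10.5 and 10.8 CPM to 14.4, 25.5 and 14.1 CPM (log2 fold change 0.74, edgeR adjusted p 0.0485), the rise in experiment 7 being the largest. Mcm6 went from 30.3, 30.3 and 22.1 CPM to 43.7, 42.9 and 33.2 CPM (log2 fold change 0.54, edgeR adjusted p 0.0318). All 6 MCM genes had a log2 fold change above 0, with a median of 0.58, whereas the 9 loaders and their regulators had a median of 0.14 and 0 calls. Over all 23 licensing genes the medians of experiments 5, 7 and 9 were 0.50, 0.34 and 0.30. Without the control of experiment 9, Mcm5 was the 1 licensing gene that passed, and Mcm3 and Mcm6 each lost their call in 5 of 6 fits without 1 library (highest edgeR adjusted p 0.183 and 0.133).

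At the fork and in nucleotide supply, 3 of 32 genes rose, against 1.59% of all tested genes. The list's medians in experiments 5, 7 and 9 were 0.26, 0.45 and 0.04, against 0.04, 0.01 and 0.004 for all genes. The shift was thus small in experiment 9. Rrm2, the small subunit of ribonucleotide reductase, went from 5.24, 12.9 and 6.26 CPM to 15.2, 28.8 and 18.6 CPM (log2 fold change 1.39, SE 0.21, edgeR adjusted p 0.00928). Pole, the leading-strand polymerase, went from 3.93, 5.02 and 4.77 CPM to 5.39, 12.2 and 10.5 CPM (log2 fold change 0.99, edgeR adjusted p 0.0318). Chaf1a, which loads histones on new DNA, was at 7.94, 10.4 and 7.28 CPM in controls and 13.6, 16.6 and 12.2 CPM in knockdowns (log2 fold change 0.73, SE 0.11, edgeR adjusted p 0.0109). The groups did not overlap for these genes. Without the control of experiment 9 none of the 3 passed, with edgeR adjusted p of 0.0606, 0.14 and 0.0638.

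Of 18 repair genes, the checkpoint pair Chek1 and Clspn rose. Chek1, the kinase that restrains the cycle under replication stress, had 20, 30 and 34 counts in controls and 79, 80 and 76 in knockdowns, that is 1.38, 1.84 and 2.03 against 3.58, 4.77 and 4.45 CPM (log2 fold change 1.30, SE 0.17, edgeR adjusted p 0.00471). Clspn, whose product claspin helps activate that kinase, had 0, 9 and 16 counts against 19, 74 and 51 (edgeR adjusted p 0.049). In CPM its groups overlapped, at 0.954 in the control of experiment 9 and 0.861 in the knockdown of experiment 5. Clspn lost its call in 5 of 6 fits without 1 library. Repair genes had medians of -0.07, 0.91 and 0.50 in experiments 5, 7 and 9, so experiment 5 did not share the upward shift.

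Among the mitotic genes there was 1 call. All 33 tested had a log2 fold change above 0, with a median of 0.96, yet only Pbk, a mitotic kinase, passed the threshold. Over all tested genes 53.5% were above 0 and 1.59% passed upward. Pbk had 2, 13 and 19 counts in controls and 32, 97 and 79 in knockdowns (edgeR adjusted p 0.0132, and 0.0613 without the control of experiment 7). The medians were 0.75, 1.88 and 0.14 in experiments 5, 7 and 9, and without experiment 7 the median was 0.27. Foxm1, the factor that activates mitotic genes, went from 3.04, 5.87 and 7.87 CPM to 5.35, 13.8 and 10.7 CPM, with overlapping groups (log2 fold change 0.84, edgeR adjusted p 0.0565). Among the 16 genes of DREAM, its pocket proteins and partners, 0 passed, with a median of 0.11.

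In level, the 13 genes stayed well under growing cells. The quiescent control stood at 1.48% to 23.9% of the proliferating control mean, with a median of 5.30%, and the quiescent knockdown at 10.5% to 46.97%, with a median of 13.7%. For Mcm5 the proliferating means were 129 CPM in control and 112 CPM in knockdown, and for Rrm2 154 and 168 CPM. Neither gene passed the threshold in proliferating cells (edgeR adjusted p 0.95 and 0.97).

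**Figure D2:**
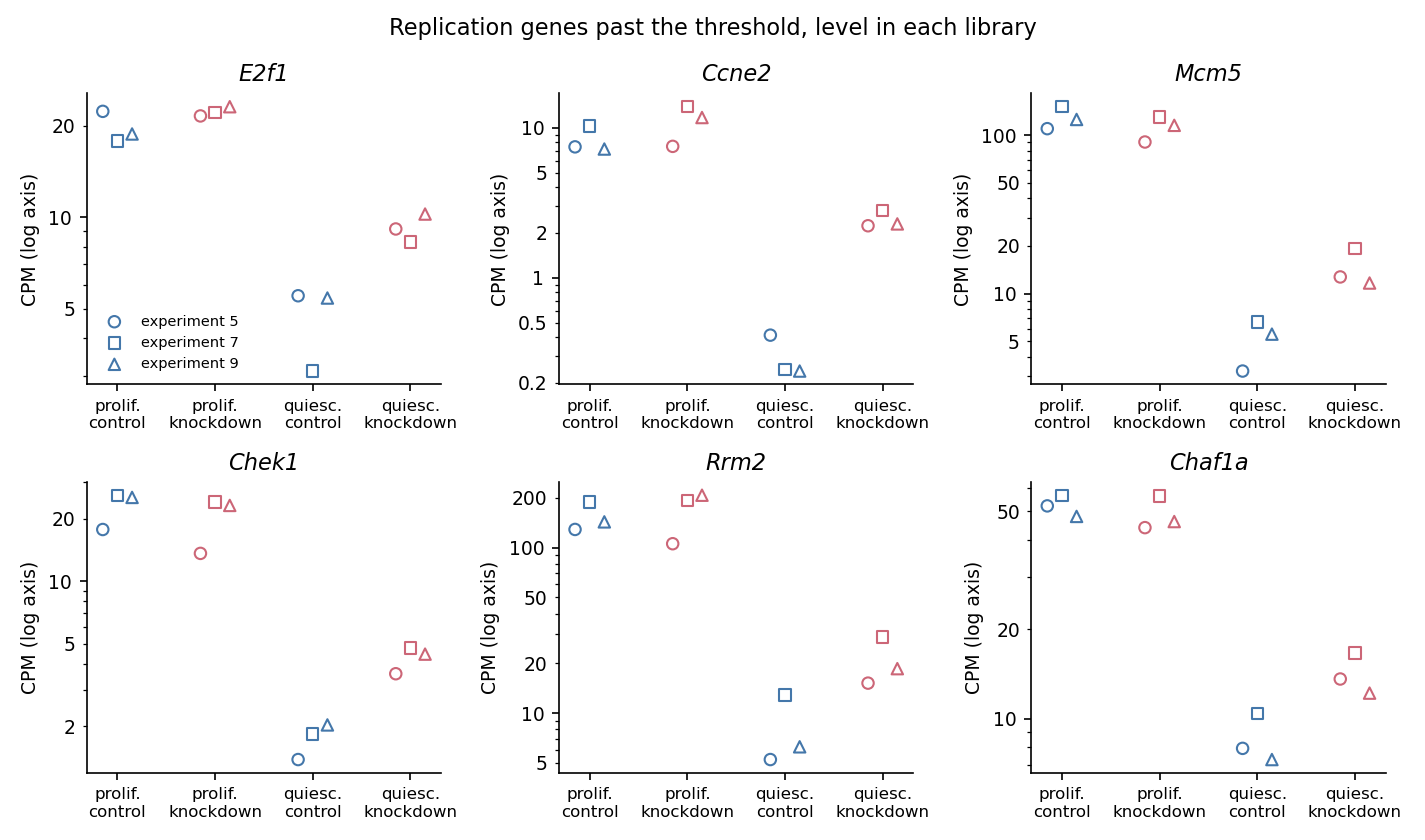
Level of 6 replication genes in each of the 12 libraries (CPM on a log axis, experiments marked by shape, control in blue and knockdown in red). In quiescent cells each knockdown library lies above each control library for all 6 genes, and both lie below the proliferating libraries.

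A promoter was found in the RefSeq table for 8900 tested genes, among them 10 of the 13. Of these 10 genes, 7 held an E2F match (E2f2 in 1 of its 2 listed promoters), and E2f1, E2f8 and Rrm2 held none in the listed window. The listed E2f1 window runs through protein-coding sequence of that gene, so the promoter upstream of its coding sequence was not read. Other starts that the RefSeq table does not list were not read either. An E2F match, in the spellings given above, was found in 5.17% of tested genes, in 9.92% of the higher genes (13 of 131) and in 2.75% of the lower genes (5 of 182). Of the 13 higher genes with a match, 7 are the cell-cycle genes counted before. The share of the higher genes therefore rests largely on that list and shows no excess outside it. In the listed cell-cycle genes a match was found in 34.4% (32 of 93). The CHR spelling TTTGAA, read on both strands, was found in 13.98%, 14.5%, 13.2% and 35.5% of the same sets. Most higher genes therefore held neither spelling in this window. A match describes letters in the window and not a bound site.

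Among the 14 largest increases were Cdh17, Ivl, Il24, Psca, Rhpn1, Kif12, Ppbp, Aplp1, Thbd, Csf1r, Pamr1, Tnfrsf9 and Tmprss4, with log2 fold changes from 4.19 down to 1.60. Cdh17, a cadherin best known from the intestine, was at 2.83, 1.28 and 1.13 CPM in controls and 29.5, 15.7 and 64.1 CPM in knockdowns (log2 fold change 4.19, SE 0.71, edgeR adjusted p 0.0144, without the block 0.0502). The groups were far apart, and the knockdown of experiment 9 was the highest by a wide margin. Without the control of experiment 9 the edgeR adjusted p was 0.0762.

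Ivl encodes involucrin, a scaffold of the cornified envelope of squamous epithelia. It went from 4.69, 1.35 and 3.94 CPM to 34.5, 6.98 and 23.7 CPM (log2 fold change 2.63, SE 0.32, edgeR adjusted p 0.0038, without the block 0.099). Every knockdown exceeded every control, and the rise held in all 6 fits without 1 library. Of 9 tested squamous envelope genes Ivl alone passed, and their medians in experiments 5, 7 and 9 were 0.55, 0.86 and -0.36. Col17a1, a hemidesmosome collagen of basal cells, had 3, 1 and 4 counts in controls and 87, 15 and 40 in knockdowns. It was the 1 gene past the threshold among 13 tested basal genes, but it met the filter on low counts only through the quiescent knockdown libraries, so it had to differ and its call supports nothing.

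Psca, a lipid-anchored surface protein found on urothelium, went from 35.8, 8.57 and 16.1 CPM to 149, 35.0 and 126 CPM (log2 fold change 2.40, SE 0.57, edgeR adjusted p 0.0476). The knockdown of experiment 7 lay below the control of experiment 5, so the groups overlapped although each pair rose. Pparg, the receptor that rosiglitazone activates and a urothelial differentiation factor, fell from 5.38, 4.34 and 8.65 CPM to 2.40, 1.79 and 2.29 CPM (log2 fold change -1.45, SE 0.27, edgeR adjusted p 0.0207). These were the 2 calls among 17 urothelial differentiation genes, in opposite directions, and both lost their call in 5 of 6 fits without 1 library. Of 16 listed PPAR targets and fatty acid genes 0 passed. The summed epithelial identity markers were 12919 to 19470.2 CPM in controls and 22054 to 23552 CPM in knockdowns, mostly Krt8 and Krt18. The markers did not move alike: of 11 tested, 7 had a log2 fold change above 0 and 4 below. Cdh1 went from 2311, 1714 and 1737 CPM to 1568, 1285 and 1058 CPM. The part of these markers in the results was not tested.

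Secreted signals and receptors were also among the increases. Il24, a cytokine of the IL-10 family, had 27, 40 and 19 counts in controls and 219, 111 and 222 in knockdowns, that is 1.86, 2.45 and 1.13 against 9.93, 6.62 and 13.0 CPM (log2 fold change 2.49, SE 0.37, edgeR adjusted p 0.00928, without the block 0.0296). It lost its call without the control of experiment 9 (edgeR adjusted p 0.0609) and without all libraries of experiments 5 or 9 (0.0689 and 0.153). Of 14 epithelial cytokines and chemokines, 13 had a log2 fold change above 0 (median 0.69), against 6643 of all 12406 genes. Il24 alone passed. Ppbp, a chemokine, went from 48.0, 17.1 and 32.4 CPM to 132, 74.8 and 118 CPM, and Thbd, the surface receptor thrombomodulin, from 159, 76.6 and 149 CPM to 335, 378 and 443 CPM (log2 fold changes 1.78 and 1.64, edgeR adjusted p 0.0145 and 0.0164). Neither gene had overlapping groups. Thbd lost its call without the controls of experiments 7 or 9 and Ppbp without either library of experiment 9 (highest edgeR adjusted p 0.0845 and 0.0676).

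Csf1r, the CSF1 receptor best known from macrophages, went from 34.1, 59.7 and 32.3 CPM to 108, 104 and 163 CPM (log2 fold change 1.63, SE 0.36, edgeR adjusted p 0.0385). Leukocyte markers overlapped between the groups: their sum was 2.26 to 9.72 CPM in controls and 3.40 to 6.68 CPM in knockdowns, nearly all of it Cd68, with Emr1 and Cd3e at 0 in all 6 libraries. Tmprss4, a membrane serine protease, went from 36.2, 14.6 and 29.4 CPM to 88.3, 59.8 and 86.8 CPM (log2 fold change 1.60, edgeR adjusted p 0.0114). Rsad2, an antiviral protein, was the 1 call among 24 interferon-stimulated genes, at 2.76, 2.75 and 14.4 CPM in controls and 6.71, 7.40 and 33.5 CPM in knockdowns (log2 fold change 1.27, edgeR adjusted p 0.0262, without the block 0.613). Its level differed more between experiments than between groups. The 1 call is 4.17% of the interferon-stimulated list, near the 3.55% called among all tested genes. Csf1r lost its call in 5 of 6 fits without 1 library (highest edgeR adjusted p 0.162, without the control of experiment 9), Rsad2 in 4, and Tmprss4 in 2.

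**Figure D3:**
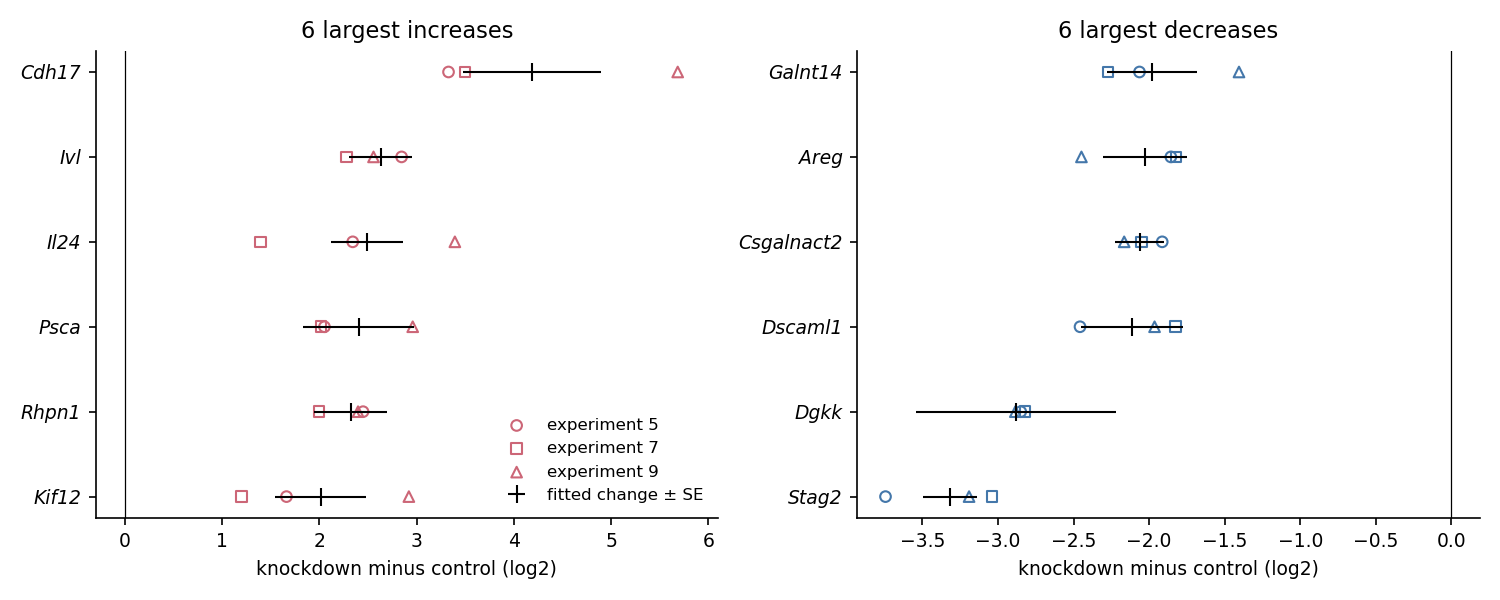
Log2 difference, knockdown minus control, within experiments 5, 7 and 9 (open symbols) and the fitted change with its SE (black), for the 6 largest increases (left) and decreases (right) by the naming rule. All 3 experiments lie on the same side of 0 for every gene shown, and the differences of Il24 ran from 1.39 to 3.39.

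The decreases after Stag2 began with Dgkk, Dscaml1, Csgalnact2, Areg, Galnt14, Mmd, Lrrn1, Ctnna1, Aldh1a1, Ddah1, Mdfi, Cftr and Abcb1b, from -2.88 to -1.55 on the log2 scale. Ctnna1, which encodes alpha-catenin, the link from cadherins to actin, fell from 1764, 1368 and 1373 CPM to 439, 493 and 399 CPM (log2 fold change -1.75, SE 0.15, edgeR adjusted p 0.000895, without the block 0.00727). It kept its call without any library and without any experiment, and its 3′ UTR holds the hexamer. Of 14 adherens junction genes it was the 1 call, and the list's median was 0.06. Csgalnact2, which starts chondroitin sulfate chains, fell from 25.3, 29.0 and 23.8 CPM to 6.62, 6.92 and 5.21 CPM (log2 fold change -2.06, SE 0.16, edgeR adjusted p 0.000619, without the block 0.00192). It was the 1 call among 17 chondroitin and dermatan sulfate genes, and with Stag2 and Ctnna1 it made up the 3 named genes that kept their call without each experiment.

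In EGF receptor signalling, which erlotinib inhibits in all 6 cultures, a ligand and the receptor fell while another ligand rose. Areg, the ligand amphiregulin, went from 21.8, 34.3 and 27.4 CPM to 5.94, 9.60 and 4.92 CPM (log2 fold change -2.03, SE 0.28, edgeR adjusted p 0.00668, without the block 0.036). Egfr went from 213, 180 and 166 CPM to 76.0, 134 and 105 CPM (log2 fold change -0.85, edgeR adjusted p 0.0326). Nrg1, a ligand of the ERBB3 and ERBB4 receptors, rose from 18.4, 30.7 and 19.6 CPM to 41.8, 63.7 and 64.0 CPM (log2 fold change 1.28, edgeR adjusted p 0.0226). None of the 3 had overlapping groups. Of the 33 tested genes of this pathway, these 3 passed, and the 11 MAPK feedback and 12 early response genes held 0 calls. Areg kept its call in every fit without 1 library. Egfr lost it in 5 of 6 (highest edgeR adjusted p 0.102, without the control of experiment 5) and Nrg1 in 3 of 6 (highest 0.0726, without the knockdown of experiment 5).

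Among retinoic acid genes 2 fell and 0 rose. Aldh1a1, which makes retinoic acid from retinaldehyde, fell from 60.7, 65.1 and 85.5 CPM to 26.6, 15.0 and 24.1 CPM (log2 fold change -1.70, SE 0.28, edgeR adjusted p 0.0128, without the block 0.0349). Rarg, a retinoic acid receptor, fell from 95.1, 97.5 and 95.1 CPM to 53.2, 58.1 and 55.3 CPM (log2 fold change -0.79, SE 0.11, edgeR adjusted p 0.00779, without the block 0.036). In both, the groups did not overlap. The replicates of Rarg were close, whereas the differences of Aldh1a1 within the experiments were -1.19, -2.11 and -1.82. Aldh1a1 and Rarg were the 2 calls among 9 tested genes. Of the 9, 7 had a log2 fold change below 0 (median -0.79, against 0.02 for all genes). Neither call passed without the control of experiment 9 (edgeR adjusted p 0.0745 and 0.0571). Aldh1a1 has a near-identical mouse paralog, so its counts are uncertain.

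Of 24 tested sterol and fatty acid synthesis genes 2 fell and 0 rose, against 1.96% lower and 1.59% higher of all tested genes. A log2 fold change below 0 was seen in 20 (median -0.26), against 5763 of all 12406 genes (median 0.02). Srebf2, the factor that switches on sterol synthesis genes, fell from 465, 346 and 325 CPM to 157, 171 and 152 CPM (log2 fold change -1.23, SE 0.14, edgeR adjusted p 0.00355, without the block 0.00727), the knockdown libraries lying close together. Scd2, a fatty acid desaturase, went from 1564, 1224 and 1127 CPM to 1061, 811 and 632 CPM (log2 fold change -0.66, edgeR adjusted p 0.0336, without the block 0.248). The 16 sterol pathway enzymes and regulators held 0 calls. Scd2 lost its call in 5 of 6 fits without 1 library and Srebf2 in 0.

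Single genes of other roles also fell. Cftr, the chloride channel, fell from 17.0, 13.6 and 55.6 CPM to 5.12, 6.14 and 16.2 CPM (log2 fold change -1.57, SE 0.17, edgeR adjusted p 0.00261, without the block 0.369), and Ddah1, which breaks down an inhibitor of nitric oxide synthesis, from 9.66, 10.0 and 31.6 CPM to 2.45, 4.77 and 8.44 CPM (log2 fold change -1.66, edgeR adjusted p 0.00379, without the block 0.366). Both were highest in experiment 9, and the groups overlapped for Cftr but not for Ddah1. Dgkk, a diacylglycerol kinase, went from 21.0, 119 and 18.5 CPM to 2.81, 16.7 and 2.40 CPM, with differences of -2.85, -2.82 and -2.89 within the experiments (edgeR adjusted p 0.0428, without the block 0.286). Abcb1b, a drug efflux pump, went from 6.83, 9.67 and 20.3 CPM to 1.99, 4.71 and 5.68 CPM (log2 fold change -1.55, edgeR adjusted p 0.0238), and it has a close paralog, so its counts are uncertain. Dgkk and Abcb1b lost their call in 4 of 6 fits without 1 library (highest edgeR adjusted p 0.181, without the control of experiment 7, and 0.108, without that of experiment 9). Among 14 BCL2 family genes the survival factor Bcl2 and the killer Bak1 both fell (log2 fold changes -0.78 and -1.17, edgeR adjusted p 0.0336 and 0.0105). The groups of Bcl2 overlapped, and it lost its call in 5 of 6 fits without 1 library (highest edgeR adjusted p 0.132, without the control of experiment 7; without the block 0.217). Listed p53 targets, Atf4 stress genes, ribosome biogenesis genes, desmosome genes and TGF-beta genes held 0 calls.

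**Figure D4:**
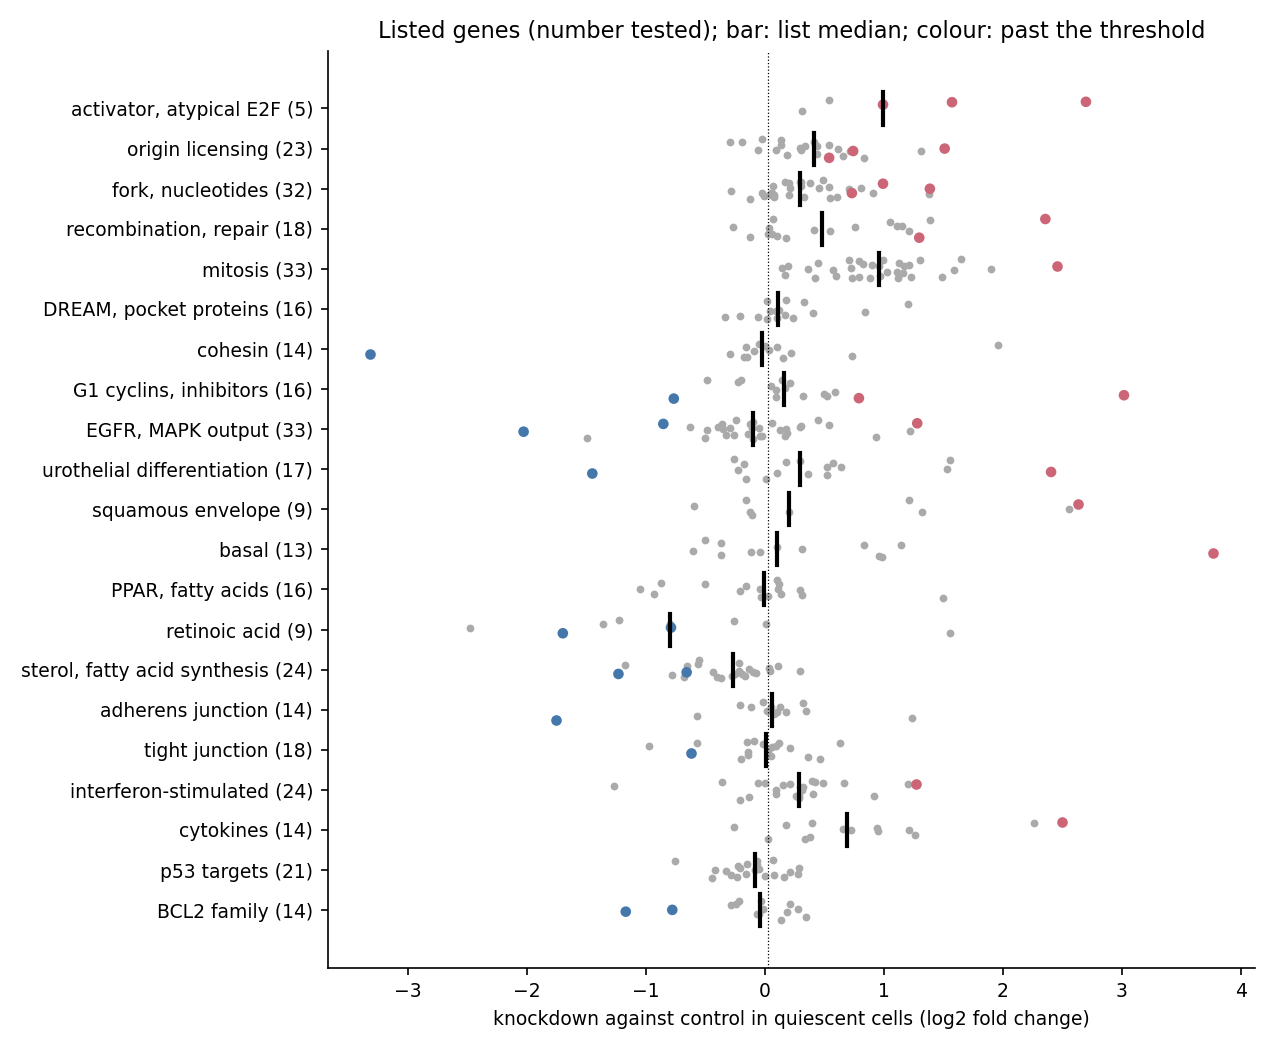
Log2 fold change of every tested gene of 21 lists (points; red and blue where past the threshold upward or downward), with the list's median (bar) and the median of all genes, 0.02 (dotted). The E2F and mitotic lists have the highest medians, 0.99 and 0.96, and the retinoic acid list the lowest, -0.79.

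The hexamer was common in the 3′ UTRs of lower genes. It was found in 69 of 231 lower genes with an annotated 3′ UTR (29.9%), in 7 of 177 higher genes (3.95%) and in 703 of all 10874 tested genes (6.46%). The 703 had a median log2 fold change of -0.16, against 0.03 for the rest. Among all tested genes the share rose with UTR length, whereas among lower genes it lay between 28.6% and 34.3% in every class above 500 bases: within UTRs of 500 to 1000 bases it was found in 32.5% of lower and 3.92% of all genes, and above 4000 bases in 28.6% and 19.9%. Among the 14 largest decreases Ctnna1, Mdfi and Mmd held it. Mmd went from 19.5, 14.2 and 15.7 CPM to 4.58, 5.13 and 3.28 CPM (log2 fold change -1.93, SE 0.24, edgeR adjusted p 0.0038, without the block 0.052), and Mdfi from 7.94, 5.93 and 7.69 CPM to 2.36, 2.74 and 1.99 CPM (log2 fold change -1.63, edgeR adjusted p 0.0207). Both fell in every experiment without overlap, and Mdfi lost its call in 3 of 6 fits without 1 library (highest edgeR adjusted p 0.0867, without the control of experiment 9).

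Further called genes with the hexamer were Bak1, the polarity protein gene Pard6b and the Hippo co-activator gene Wwtr1. Bak1 went from 99.4, 94.0 and 88.7 CPM to 38.0, 57.1 and 32.5 CPM, Pard6b from 107, 107 and 124 CPM to 64.6, 79.6 and 76.9 CPM, and Wwtr1 from 117, 91.6 and 101 CPM to 72.4, 78.3 and 68.1 CPM. The log2 fold changes of Pard6b and Wwtr1 were -0.62 and -0.50 (edgeR adjusted p 0.0344 and 0.0422). Both lost their call in 5 of 6 fits without 1 library (0.14 and 0.153 as the highest edgeR adjusted p, without the control of experiment 5), and Bak1 in 2 of 6. Csgalnact2, Areg, Aldh1a1, Cftr and Srebf2 were lower with no match in their 3′ UTR. With genes that hold the hexamer set aside, 364 calls remained, 190 higher and 174 lower. The part of the hairpin sequence in these decreases was not tested.

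**Figure D5:**
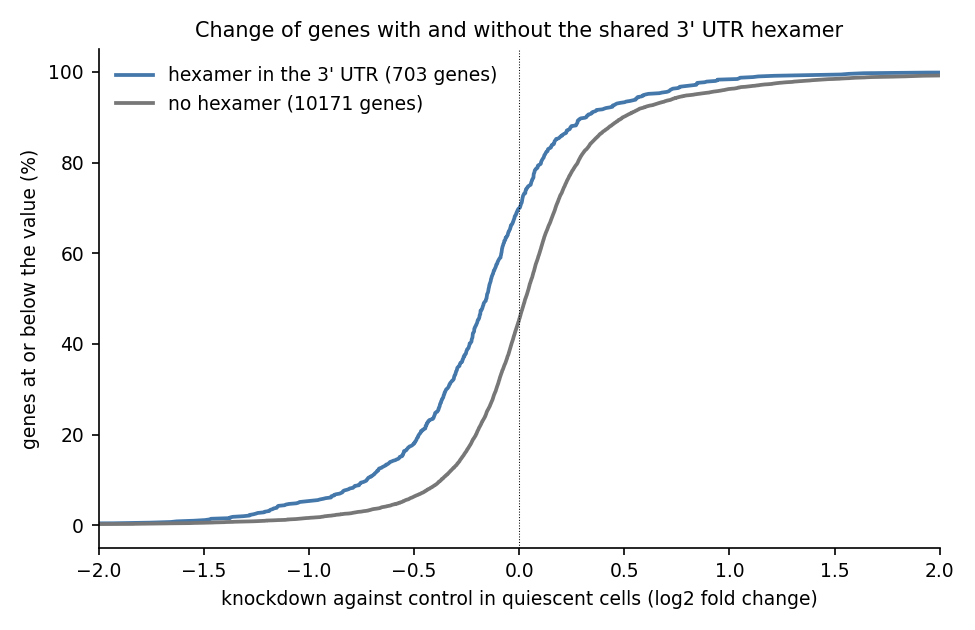
Share of genes (y axis, %) at or below a given log2 fold change (x axis) for 703 genes with the hexamer in the 3′ UTR (blue) and the genes without it (grey). The blue curve lies to the left, with medians of -0.16 and 0.03.

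The same contrast in proliferating cells called 3 of 12406 genes (0.0242%), while 645 had an unadjusted p under 0.05. Stag2 was among the 3 (log2 fold change -2.26, edgeR adjusted p 0.000717). Some decreases of the quiescent cells were also seen there without passing the threshold. Ctnna1, Csgalnact2 and Mmd had fitted proliferating changes of -1.03, -0.81 and -1.57 (edgeR adjusted p 0.0595, 0.349 and 0.0503). The genes called in quiescent cells had proliferating medians of 0.32 (higher) and -0.29 (lower), against 1.18 and -0.76 in quiescence, and the effect was larger in quiescence for 194 of 197 and 240 of 243, which their choice in quiescence favours. The difference between the states, tested gene by gene in edgeR, gave 0 calls (0%), with 590 genes at an unadjusted p under 0.05 and 29 calls by DESeq2. For Mcm5 that difference was 1.72 (unadjusted p 6.34e-06, edgeR adjusted p 0.0786). For Aldh1a1, at 5.45 CPM in proliferating controls and 6.12 CPM in proliferating knockdowns, the fitted changes were 0.16 and -1.70, and the unadjusted p of the difference was 0.001. With the experiment block fitted within each state, edgeR gave 6 calls for this difference.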

How the data were processed

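Raw counts per gene symbol in 12 libraries were deposited by the authors, with no normalization. The submitters' processing notes name Bowtie, TopHat, HTSeq, DESeq2 and the build mm10. Their roles, versions and the annotation are not given in the sources used here. The RNA was polyadenylated and the kit stranded, per the labels' protocols, but whether counting used strand is not given in the sources used here, so overlapping and antisense genes may share reads. No scaling to spike-ins was made. Nothing in the labels says that the 3 libraries of a group came from separate thaws or passages, so p-values cover these libraries only. In the main fit they measure the spread left after the experiment block, pooled over all 12 libraries.

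The table held 23337 rows, 5762 of them without a count in any library. Counts were fitted in R 4.3.3 with edgeR 4.0.16 (TMM, filterByExpr with a minimum count of 10, glmQLFit and glmQLFTest) on all 12 libraries, with 4 group means and the experiment number as a block. P-values were adjusted by Benjamini-Hochberg over 12406 genes, with a threshold of 0.05. The pairing comes from the experiment number, which the labels also give as batch. Deviations from group means had a mean correlation of 0.53 across genes between libraries of the same experiment (18 pairs, 0.23 to 0.79). Between libraries that differ in both experiment and group it was -0.26 (36 pairs). Deviations within a group sum to 0, so a positive first value pushes the second below 0, and the second is no separate evidence for the pairing. Replicates differed by more than sampling noise (chi-square per degree of freedom 38.3 to 62.7). The SE is the log2 fold change divided by the square root of F, and a prior count of 2 entered log2 CPM. Floors and shares cover counting error only. The fit was tested on simulated data.

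Named genes were Stag2, the 14 largest changes each way among genes past the threshold that moved alike in all 3 experiments and averaged 2 or more in log2 CPM over the 6 quiescent libraries, and from each gene list up to 8 members past the threshold or up to 3 with the smallest p. Members and lists were chosen with earlier results of these data known, and genes outside this rule were named after their values were seen. A result among the named genes is not reported here. Lists are described by counts and medians without a test. Over all tested genes 3.55% were called and 53.5% had a log2 fold change above 0, and list counts are to be read beside these shares. Alternatives were no block, the block within each state, a fit of 6 libraries, median-of-ratios size factors, DESeq2 1.42.0, other filters, thinning and leaving out libraries or experiments. 3′ UTRs came from GENCODE gene models on GRCm38 and promoters from RefSeq.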

Additional observations from a re-analysis of the deposited data

Results flagged for a closer look

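For 6 named genes the knockdown moved every experiment one way in quiescent cells and every experiment the other way in proliferating cells. The log2 effect in quiescent minus that in proliferating cells was 1.72 for Mcm5, 1.50 for Chek1, 0.95 for Mcm3, 0.83 for Chaf1a and 2.50 for Clspn, all higher in the quiescent and lower in the proliferating knockdown. For Pkp3, a desmosome plaque gene, it was -0.30. In edgeR's test of the difference over all genes, the adjusted p was 0.0786 for Mcm5, 0.182 for Chek1, 0.698 for Mcm3, 0.327 for Chaf1a, 0.808 for Clspn and 0.999 for Pkp3, so none passed the threshold. The fitted proliferating changes were small, from -0.21 for Mcm3 and Mcm5 to 0.13 for Pkp3.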

How the results depend on the processing

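The 440 calls became 54 with no replicate block, so the count depended on the pairing by experiment. With the pairing kept, it also varied with the other settings. The count was 806 in a fit of the 6 quiescent libraries, 1563 with the replicate block within each state and 1019 by DESeq2, which shared 436. It was 446, 493, 398 and 433 with other size factors, no filter, a mean count of at least 50 and thinning, and 364 without hexamer genes. Leaving out 1 library gave 53 to 581 calls (170, 148 and 53 without the controls and 191, 581 and 88 without the knockdowns of experiments 5, 7 and 9), and leaving out an experiment 101, 26 and 13. The 3 calls in proliferating cells became 18, 7, 5, 20 and 7 in the 6-library fit, with the block within state, with other size factors, by DESeq2 and with no filter, 4 with the other filter or thinning, and 0 to 2 without a library or an experiment. The 0 calls for the difference between states became 6 with the block within state, 29 by DESeq2, 1 with no filter, thinned or without the quiescent knockdown of experiment 9, and 0 otherwise. Stag2 kept its call and direction throughout, between -3.49 and -3.10. Cd68, not past the threshold, reversed from 0.01 to -0.23 with no replicate block, -0.15 in the 6-library fit, -0.15 with the block within state, -0.013 with no filter, -0.014 thinned, and -0.30, -0.78 and -0.80 without the control, the knockdown or both of experiment 7. The cause of these shifts was not tested.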
